A study of Mus musculus with 20 samples.

Results

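The 9 genes described here are commonly used markers of fibroblasts: Pdgfra, Pdgfrb, Dcn, Lum, Postn, Thy1, Fbln2, Twist1 and Twist2. They were taken from the table by matching the Ensembl gene ID of each row to those symbols, and all 9 were found among 55891 gene IDs. RNA had been sequenced in 20 libraries of primary mouse renal tubular epithelial cells, which were isolated from kidneys and cultured in medium with fetal bovine serum, epidermal growth factor, prostaglandin E2 and hormones. The mice were of the strain B6.129-Ptprz1tm1Nmo, which carries a targeted allele of Ptprz1, a receptor protein tyrosine phosphatase, and were KO or heterozygous (het), so that every group carries that allele and none is wild type. The 4 groups of 5 libraries were KO cells given LPS (100 ng/mL) with IFNγ (10 ng/mL) for 24 hours, untreated KO control cells, het cells given LPS with IFNγ, and untreated het control cells. LPS is a bacterial endotoxin, and IFNγ is a cytokine of T and NK cells. The labels give no age or sex. They name 10 animals, 8 with both libraries under 1 genotype and animals 5 and 7 with 1 library under each, and do not say whether the 2 libraries of an animal came from separate cultures, so the p-values below reflect library-to-library spread, which may be partly technical.

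Kidney fibroblasts and pericytes lie between the tubules, make collagen and other matrix, and are separated from the tubular epithelium by a basement membrane. When kidney tissue is dispersed and plated, a few of them can be carried along and can grow out in serum. PDGF receptors sit on such cells and respond to PDGF ligands that epithelium, endothelium and other cells release. Several genes on marker lists of this kind are also expressed by cultured epithelial cells, so each gene was read on its own before any sum was formed.

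The promoter sequences of 4 members are shown because these 4 cover the contrast in level that runs through the data: Fbln2 was the most abundant member, Twist2 was steady, Twist1 was near 0 although it is a close relative of Twist2, and Postn fell with stimulation within animals. Each is the plus strand, which is the gene's own strand, of the 250 bases before a RefSeq transcription start (build GRCm38.p6). Capitals mark the letters TATAAA and GGGCGG found on either strand, so that GGGCGG on the minus strand reads CCGCCC. The Postn window is chr3:54360857-54361106, that of Fbln2 chr6:91212514-91212763, that of Twist1 chr12:33957421-33957670 and that of Twist2 chr1:91801211-91801460.
Postn: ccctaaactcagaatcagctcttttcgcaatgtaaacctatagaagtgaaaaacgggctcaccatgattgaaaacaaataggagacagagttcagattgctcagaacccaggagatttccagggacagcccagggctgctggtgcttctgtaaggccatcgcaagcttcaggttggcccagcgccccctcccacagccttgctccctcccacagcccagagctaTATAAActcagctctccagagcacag
Fbln2: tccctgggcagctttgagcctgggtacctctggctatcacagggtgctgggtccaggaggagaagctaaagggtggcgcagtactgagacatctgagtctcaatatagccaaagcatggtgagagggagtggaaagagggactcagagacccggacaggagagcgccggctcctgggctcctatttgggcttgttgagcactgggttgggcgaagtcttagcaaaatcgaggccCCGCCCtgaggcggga
Twist1: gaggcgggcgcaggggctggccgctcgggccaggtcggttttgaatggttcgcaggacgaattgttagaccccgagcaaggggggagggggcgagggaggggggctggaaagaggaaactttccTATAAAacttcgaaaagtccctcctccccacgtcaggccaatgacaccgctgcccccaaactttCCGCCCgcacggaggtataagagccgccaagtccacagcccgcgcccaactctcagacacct
Twist2: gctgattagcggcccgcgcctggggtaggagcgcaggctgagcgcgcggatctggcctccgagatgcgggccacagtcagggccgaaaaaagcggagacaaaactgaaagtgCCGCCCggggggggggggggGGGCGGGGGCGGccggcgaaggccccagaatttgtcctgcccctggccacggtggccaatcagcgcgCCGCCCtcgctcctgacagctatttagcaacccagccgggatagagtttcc
RefSeq gives Postn a second start, whose window, chr3:54359017-54359266, held no TATAAA, no GGGCGG and 3 CpG and is not printed. The Postn window shown held 1 TATAAA and 4 CpG, the Fbln2 window 1 GGGCGG and 8 CpG, the Twist1 window 1 of each motif and 18 CpG, and the Twist2 window 4 GGGCGG and 23 CpG. Among 32851 RefSeq windows of the same length, 12.4% held TATAAA and 32.7% held GGGCGG, and the median window had 6 CpG. The near-silent Twist1 and the expressed Twist2 both had a GGGCGG and more CpG than the median window. The motif matches describe letters only.

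Before any result, 4 libraries have to be named because they go against their stimulation label. Nos2, the inducible nitric oxide synthase gene, which LPS with IFNγ strongly raises, stood at 1223 to 3400 CPM (counts scaled to the library total) in 8 libraries labelled stimulated and at 0 to 0.233 CPM in 8 labelled control. In animal 8 (KO) the library labelled stimulated had 0 CPM of Nos2 and the library labelled control had 199.9 CPM, and in animal 4 (het) the library labelled stimulated had 0 CPM and the library labelled control 85.3 CPM. Results are given with all libraries as labelled and without these animals. Ptprz1 itself gave 15 counts over the 10 KO libraries and 16 counts over the 10 het libraries, 0 to 7 per library in KO and 0 to 4 in het, so it does not check the genotype labels; 13 of the 15 KO counts came from animal 8. The libraries held 12899528 to 20411411 counts, and 1 count was thus worth less than 0.1 CPM.

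The 9 markers did not share 1 level. Per kilobase of exon, Fbln2, which encodes a secreted glycoprotein of basement membranes and elastic fibres, averaged 212 CPM per kilobase over the 20 libraries. Pdgfrb, the PDGF receptor of pericytes and other perivascular cells, followed with 12.5, the transcription factor gene Twist2 with 6.43, Postn, which encodes a matrix protein of injured and fibrotic tissue, with 3.47, and Thy1, a surface glycoprotein gene, with 1.24 CPM per kilobase. The other 4 lay far lower: Twist1 at 0.242, Dcn at 0.0938, Pdgfra at 0.07996 and Lum at 0.0123 CPM per kilobase. Pdgfra, the PDGF receptor widely used to define fibroblasts, and Dcn and Lum, which encode the collagen-binding proteoglycans decorin and lumican, were therefore at or near 0 in cultures in which Fbln2 was abundant.

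Summed over the 9 genes, member CPM ran from 522 to 2156 per library with a median of 1609, and Fbln2 alone made up 64.1 to 98.5% of the sum (median 92.5%). The sum is thus mostly a reading of Fbln2. The label of a fibroblast signal is not borne out by the list as a whole, since Pdgfra, Dcn, Lum and Twist1 were near 0 where Fbln2 was abundant. In bulk RNA, fewer cells of a type and less RNA per cell cannot be told apart, and this holds for every level given here.

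**Figure D1:**
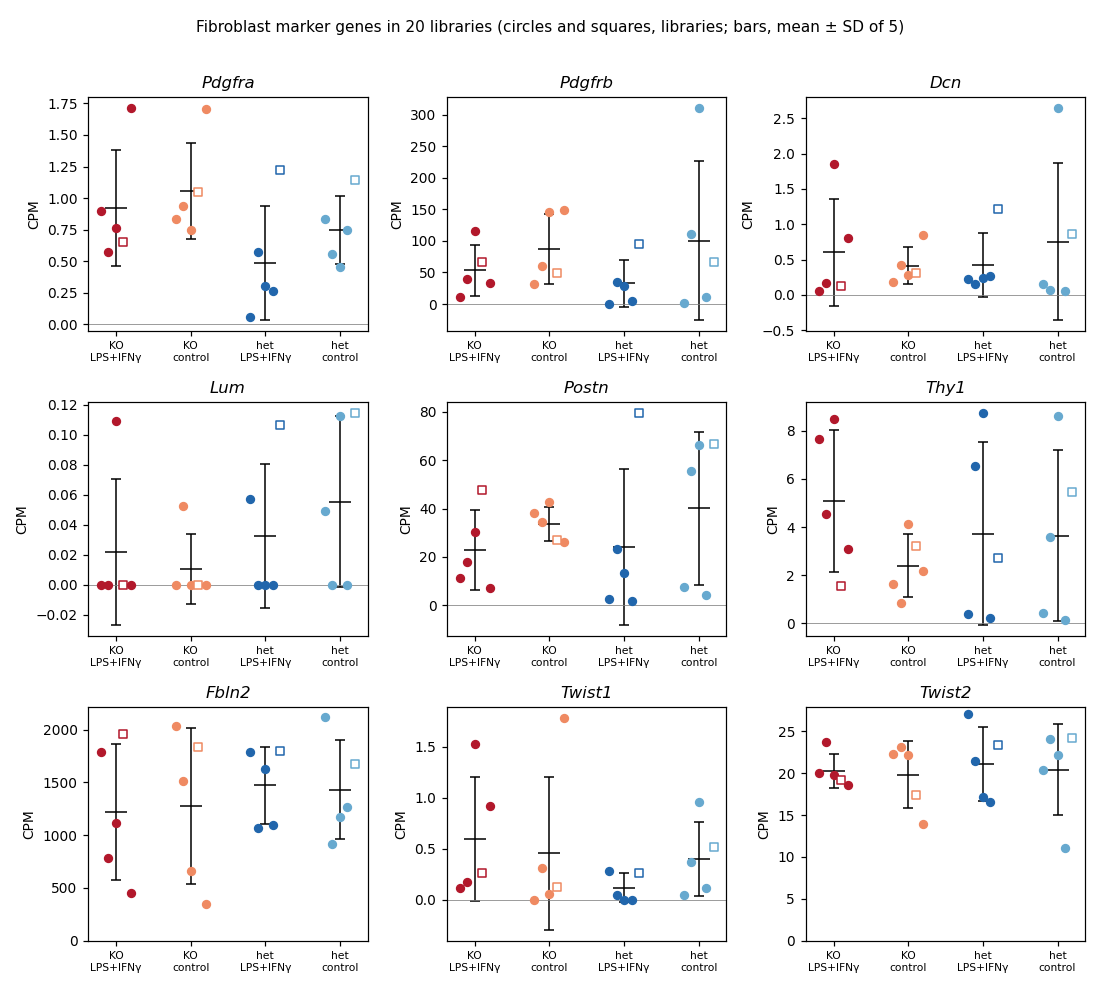
CPM of each marker (vertical axis, its own linear scale) in the 4 groups, with 1 point per library, open squares for the libraries of animals 4 and 8, and bars for the mean ± SD of 5 libraries. Fbln2 lies between 347 and 2124 CPM, while Pdgfra, Dcn, Lum and Twist1 stay under 3 CPM in every library.

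Among the receptors, Pdgfra had 0.894, 0.574, 0.762, 0.649 and 1.72 CPM in stimulated KO libraries and 0.836, 0.940, 0.747, 1.05 and 1.71 CPM in KO control libraries (replicates 1 to 5, the order used throughout). In het cells it had 0.0572, 0.573, 0.306, 0.264 and 1.22 CPM when stimulated and 0.833, 0.557, 0.451, 0.749 and 1.15 CPM in controls. With all libraries as labelled the 4 groups overlapped, and the whole gene rested on 275 counts in 20 libraries. Without animals 4 and 8, the lowest stimulated KO value (0.574 CPM, 10 counts) lay just above the highest stimulated het value (0.573 CPM, 11 counts). The share of all genes without such overlap is not given here, so no difference between genotypes is read from this. No member was called in that comparison. The highest libraries were both from animal 10.

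Pdgfrb ranged far more widely. It had 11.4, 40.3, 115, 65.9 and 33.2 CPM in stimulated KO libraries and 31.8, 59.9, 146, 49.4 and 148 CPM in KO control libraries. In het cells it had 0.286, 35.7, 29.3, 4.75 and 94.4 CPM when stimulated and 2.06, 111, 311, 11.9 and 66.6 CPM in controls. The groups overlapped throughout, and the highest library exceeded the lowest 1087-fold, against 6.11-fold for Fbln2 and 2.45-fold for Twist2. The 3 lowest values came from the stimulated and control libraries of animal 1 and the stimulated library of animal 9.

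Of the matrix genes, Postn had 11.4, 18.03, 30.3, 47.8 and 6.92 CPM in stimulated KO libraries and 38.0, 34.5, 42.8, 27.1 and 26.05 CPM in KO control libraries. In het cells it had 2.40, 23.3, 13.2, 1.72 and 79.6 CPM when stimulated and 7.64, 55.5, 66.3, 4.03 and 66.8 CPM in controls. On average animals 1 and 9 were again the lowest (5.02 and 2.88 CPM). The library labelled stimulated of animal 4 was the highest.

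Fbln2 had 1788, 785, 1112, 1959 and 456 CPM in stimulated KO libraries and 2039, 1511, 659.9, 1839 and 347 CPM in KO control libraries. In het cells it had 1789, 1064, 1627, 1099 and 1797 CPM when stimulated and 2124, 919, 1176, 1269.8 and 1673 CPM in controls. Stimulated and control libraries of 1 animal lay close together, while animals differed: animal 10 averaged 402 CPM and animal 1 averaged 1957 CPM.

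Dcn lay between 0.0559 and 2.65 CPM and reached 1 CPM in 3 libraries, the 2 of animal 7 (1.85 CPM in its library labelled stimulated KO and 2.65 CPM in its library labelled het control) and the library labelled stimulated of animal 4 (1.22 CPM). Lum gave 11 counts in all and none in 13 of 20 libraries, each of which allows up to 3 counts, or 0.156 to 0.233 CPM. Where Lum was found, it was in animals 1, 4, 5 and 7, at 0.115 CPM or less.

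Thy1, which marks fibroblasts and also T cells and neurons, had 7.65, 4.54, 8.49, 1.56 and 3.09 CPM in stimulated KO libraries and 1.61, 0.836, 4.14, 3.21 and 2.17 CPM in KO controls. In het cells it had 0.400, 6.56, 8.75, 0.198 and 2.71 CPM when stimulated and 0.441, 3.59, 8.63, 0.115 and 5.44 CPM in controls. Animals 1 and 9 were lowest here too, with 0.441 CPM or less in each of their 4 libraries.

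Twist1 and Twist2 encode related basic helix-loop-helix transcription factors of mesenchymal cells. Twist1 lay at 0 to 1.78 CPM, with 131 counts in all, and passed 1 CPM in the library labelled stimulated KO of animal 7 and in the control library of animal 10. Twist2 had 20.1, 23.7, 19.8, 19.2 and 18.6 CPM in stimulated KO libraries and 22.3, 23.1, 22.2, 17.4 and 13.95 CPM in KO controls. In het cells Twist2 had 27.1, 21.4, 17.2, 16.5 and 23.4 CPM when stimulated and 20.4, 24.0, 22.2, 11.1 and 24.2 CPM in controls. Of the members with counts in every library, Twist2 had the smallest ratio of highest to lowest CPM (2.45). Across libraries the log2(CPM + 1) of Twist2 did not follow that of Twist1 (r = −0.10 over 20 libraries, a description, since libraries share animals).

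The animal accounted for most of the variation of every member, though for Pdgfra little more than in the median gene. Differences between animals of different genotype are part of this share. The value of Lum rests on 11 counts, with 0 in 13 libraries. Of the variance of log2(CPM + 1), the share between animals was 97.8% for Fbln2, 96.2% for Lum, 95.7% for Dcn, 87.5% for Pdgfrb, 86.8% for Twist1, 81.4% for Postn, 74.3% for Thy1, 72.5% for Twist2 and 68.4% for Pdgfra. Libraries unrelated to each other would give 47.4%, and the median of all genes tested was 65.2%. The stimulation label took up 11.04% of the variance of Postn and 7.89% of that of Pdgfrb, and the genotype label at most 22.0%, for Pdgfra.

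The question of stimulation was addressed first with all libraries as labelled, with edgeR's quasi-likelihood test in 1 model of 4 group means and a call at a Benjamini-Hochberg adjusted p under 0.05. Of 9 members 7 passed the filter on low counts (Lum and Twist1 did not). In KO cells 0 of the 7 were called, where 0% of the 14568 genes tested were called. In het cells 0 of 7 were called, again against 0% of all genes. At an unadjusted p under 0.05, 1307 genes stood in KO cells and 1981 in het cells, and DESeq2 called 115 genes in KO cells (0.789%) and 483 in het cells (3.32%) with no member among them.

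The members' fold changes in that fit were small against their errors. Pdgfrb averaged 53.2 ± 39.7 CPM in stimulated KO cells and 87.1 ± 55.8 CPM in KO controls (SD, n = 5 each), a log2 fold change of −0.66 ± 1.07 (SE; edgeR adjusted p = 0.947). In het cells Pdgfrb averaged 32.9 ± 37.6 CPM when stimulated and 100.4 ± 126 CPM in controls, a log2 fold change of −1.56 ± 1.09 (edgeR adjusted p = 0.572). Postn had −0.53 ± 0.86 in KO and −0.69 ± 0.86 in het cells, and Thy1 had 1.13 ± 0.95 in KO and 0.13 ± 0.94 in het cells. The remaining members had log2 fold changes between −0.75 (Dcn, het) and 0.64 (Dcn, KO), and Fbln2 had −0.04 ± 0.43 in KO and 0.16 ± 0.43 in het cells. For Lum and Twist1, exact two-sided permutation tests of CPM, 5 libraries against 5, gave p between 0.143 and 1 for stimulation.

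Compared within animals in a selection of libraries, 2 members changed. Among the 6 animals with both libraries under 1 genotype and with Nos2 following the label, Pdgfrb was lower in the stimulated library in 6 of 6, as were 26% of the genes tested. In KO animals it stood at 11.4, 40.3 and 33.2 CPM when stimulated, against 31.8, 146 and 148 CPM in the controls of the same animals 3, 6 and 10. In het animals it stood at 0.286, 35.7 and 4.75 CPM when stimulated, against 2.06, 111 and 11.9 CPM in the controls of animals 1, 2 and 9. The control level was 2.50 to 7.19 times the stimulated level in each animal, although the levels of different animals overlapped between the states.

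Postn fell likewise in 6 of 6 animals. It had 11.4, 18.03 and 6.92 CPM in stimulated libraries of KO animals 3, 6 and 10, against 38.0, 42.8 and 26.05 CPM in their controls. These KO values did not overlap, which held in this direction for 16.7% of the genes tested. In het animals 1, 2 and 9 it had 2.40, 23.3 and 1.72 CPM when stimulated, against 7.64, 55.5 and 4.03 CPM in their controls. The control level was 2.35 to 3.76 times the stimulated level.

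In an edgeR fit of these 12 libraries with the animal as a block, Pdgfrb fell by 1.77 ± 0.18 on the log2 scale in KO cells (SE; adjusted p = 0.000895) and by 1.55 ± 0.21 in het cells (edgeR adjusted p = 0.00343). Postn fell by 1.55 ± 0.14 in KO cells (edgeR adjusted p = 0.000611) and by 1.26 ± 0.16 in het cells (edgeR adjusted p = 0.00238). These are 2 of 6 tested members in each genotype, where 4.47% of 14776 genes were called lower in KO and 6.9% in het cells. With only the 4 libraries of animals 4 and 8 left out, the block gave Pdgfrb −1.64 ± 0.18 in KO and −1.37 ± 0.21 in het cells, and Postn −1.48 ± 0.13 in KO and −1.19 ± 0.14 in het cells, all called, where 5.06% of genes in KO and 7.96% in het cells were called lower. The choice of libraries matters: with all 20 and the animal as a block, Pdgfrb had −1.25 ± 0.46 in KO and −1.02 ± 0.48 in het cells and was not called (edgeR adjusted p = 0.477 in KO and 0.306 in het cells), nor was Postn. The share of all genes called in that fit of all 20 libraries is not given here. The selection of libraries with the animal as a block was made after the data had been seen.

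The 4 libraries against their label ran the other way for both genes. In animal 8 Pdgfrb had 65.9 CPM in the library labelled stimulated and 49.4 CPM in that labelled control, and Postn had 47.8 CPM in the library labelled stimulated and 27.1 CPM in that labelled control. In animal 4 Pdgfrb had 94.4 CPM in the library labelled stimulated and 66.6 CPM in that labelled control, and Postn had 79.6 CPM in the library labelled stimulated against 66.8 CPM in that labelled control. In both animals the library without Nos2 thus had the higher Pdgfrb and Postn. The libraries of animals 5 and 7, which the labels put under both genotypes, also had lower Pdgfrb and Postn when stimulated, with Pdgfrb at 29.3 CPM stimulated against 59.9 CPM control in animal 5 and at 115 CPM stimulated against 311 CPM control in animal 7.

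**Figure D2:**
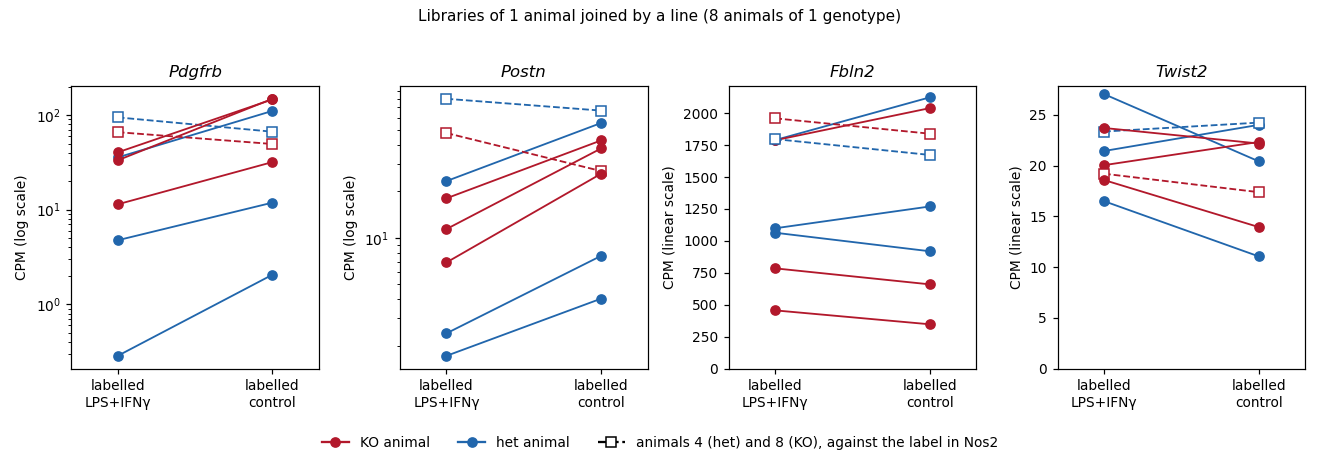
CPM of Pdgfrb and Postn (log axes) and Fbln2 and Twist2 (linear axes from 0) in the library labelled LPS+IFNγ, left, and labelled control, right, of 8 animals, each joined by a line; red is KO, blue is het, and dashed lines with open squares are animals 4 and 8. Pdgfrb and Postn slope up to the control in 6 of 6 animals drawn with solid lines and down in the other 2, while Fbln2 and Twist2 slope either way.

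The other members showed no such change within animals. Fbln2 was lower in the stimulated library in 3 animals and higher in 3, with ratios of stimulated to control of 0.842 to 1.31 and log2 fold changes of 0.22 ± 0.15 in KO and 0.05 ± 0.15 in het cells. Twist2 was higher in the stimulated library in 4 of 6 animals (0.18 ± 0.20 in KO, 0.40 ± 0.20 in het). Thy1 was higher in 5 of 6 animals, with log2 fold changes of 1.01 ± 0.43 in KO and 0.66 ± 0.53 in het cells (edgeR adjusted p = 0.2002 in KO and 0.431 in het cells). Pdgfra had −0.01 ± 0.52 in KO and −1.25 ± 0.64 in het cells, with 1 to 17 counts per library in animals 1 and 9. Dcn, Lum and Twist1 did not pass the filter in these 12 libraries.

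**Figure D3:**
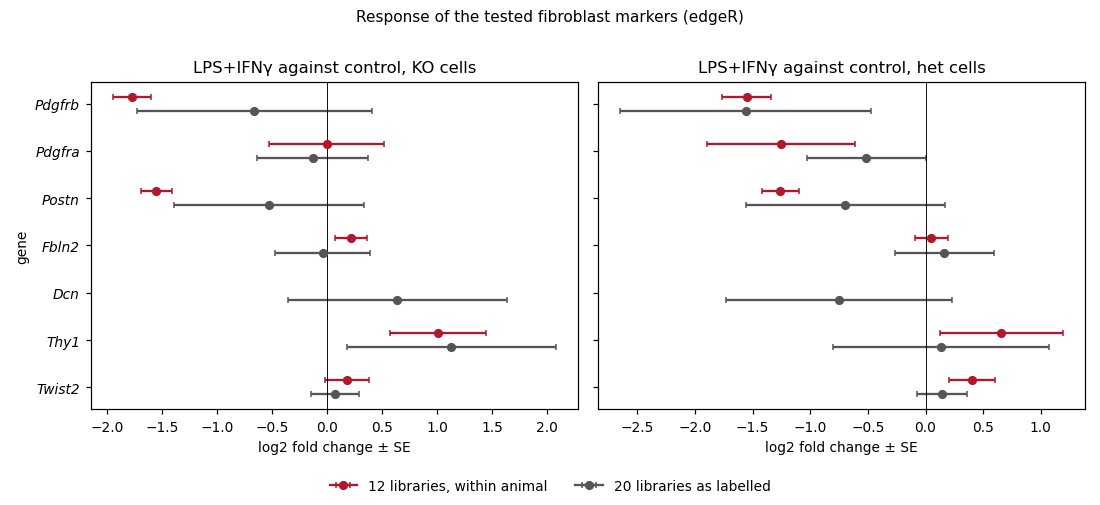
Log2 fold change ± SE (horizontal axis) of the tested markers for LPS+IFNγ against control in KO cells, left, and het cells, right, from 12 libraries compared within animals (red) and from 20 libraries as labelled (grey). Pdgfrb and Postn lie left of 0 with short bars in the within-animal fit, and the grey bars are wide for Pdgfrb, Postn, Dcn and Thy1; Dcn has no red point because it did not pass the filter there.

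The direct comparison of genotypes gave no call among members. With KO over het in control cells 0 of 7 were called against 0% of all genes, and in stimulated cells 0 of 7 against 0%; at an unadjusted p under 0.05 there were 499 genes in control and 366 in stimulated cells, and DESeq2 called 2 (0.0137%) in control and 0 in stimulated cells. Fbln2 averaged 1279 ± 741 CPM in KO controls and 1432 ± 472 CPM in het controls (SD, n = 5 each), a log2 fold change of −0.08 ± 0.43, and 1220.2 ± 643 CPM in stimulated KO cells and 1475 ± 366 CPM in stimulated het cells, a log2 fold change of −0.28 ± 0.43. Pdgfrb had −0.19 ± 1.06 in controls and 0.71 ± 1.07 in stimulated cells, and Pdgfra had 0.55 ± 0.51 in controls and 0.93 ± 0.52 in stimulated cells. The SEs of Pdgfrb, Postn, Thy1 and Dcn were 0.86 to 1.07 on the log2 scale, and differences of that size in either direction were not detectable. The animals with the lowest Pdgfrb, 1 and 9, were both het, and without them the log2 fold change of Pdgfrb was −0.89 ± 0.69 in controls and 0.02 ± 0.71 in stimulated cells, with no call.

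The responses of KO and het cells were not shown to differ. In the 20 libraries 0 of 7 members were called for the difference of responses against 0% of genes, with 138 genes at an unadjusted p under 0.05 and 1 called by DESeq2 (0.00686%). In the within-animal fit the KO response minus the het response was −0.22 ± 0.27 for Pdgfrb and −0.30 ± 0.21 for Postn on the log2 scale (edgeR adjusted p = 0.910 for both), and 0 of 14776 genes were called. For Lum and Twist1, KO against het gave exact two-sided permutation p between 0.135 and 1.

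Pairs of markers differed in how they varied across libraries. Of the 36 pairs, the highest r on the log2(CPM + 1) scale over 20 libraries was that of Pdgfrb and Postn (0.85), followed by Dcn with Lum (0.76) and with Twist1 (0.74), which rest on few counts. Pdgfrb also had r = 0.60 with Thy1, 0.55 with Dcn and 0.49 with Twist1, and Postn had 0.54 with Thy1. Fbln2 ran against Twist1 (−0.55) and Pdgfrb (−0.38) and had r = −0.02 with the mean profile of the 9 genes. These values describe 20 libraries of 10 animals, and libraries of 1 animal are not independent.

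Other genes with the closest profile to the mean of the members, out of 10479 with at least 5 CPM on average, were Olfml2b (r = 0.94), Fbn2 (0.90), which encodes fibrillin-2, and C1qtnf6 (0.88). The lowest r was that of Pak4 (−0.82). Pdgfrb was matched most closely by Foxc2 (0.99), a forkhead transcription factor gene, Robo1 (0.97) and Fbn1 (0.97), which encodes fibrillin-1. Postn was matched most closely by Ammecr1 (0.95), Csrp2 (0.95) and Zswim6 (0.94). Fbln2 was matched by Nras (0.91), Il1rl1 (0.91) and the chaperonin genes Cct8 and Cct2 (both 0.90), and no gene of the matrix list was among its 8 closest.

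The cultures also differed in epithelial genes. Animals 2, 6 and 10 had almost no Epcam, an epithelial adhesion gene (0.43, 0.63 and 0.19 CPM on average), while it averaged 15.6 to 74.6 CPM in each remaining animal, and Cdh1, encoding E-cadherin, stood at 0.57 to 1.12 CPM there and at 31.0 to 168 CPM in the remaining animals. Pax8, a transcription factor gene of renal epithelium, was present in all (141 to 312 CPM). These 3 animals had the lowest Fbln2, with 402, 723 and 991 CPM on average in animals 10, 6 and 2, and 73.1 to 93.2 CPM of Pdgfrb. Animals 1 and 9 had the highest summed proximal tubule genes (461 and 446 CPM; the next highest, animal 3, had 122 CPM), the highest summed leukocyte genes (82.5 and 299.9 CPM; the next highest, animal 8, had 17.8 CPM) and the lowest Pdgfrb.

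Across the 10 animals, 15 relations of the summed members or of a single member to a list were computed on log2 values, with 100000 permutations, two-sided. Pdgfrb was lower in animals with higher summed proximal tubule genes (Pearson r = −0.898, permutation p adjusted over 15 relations = 0.00675; Spearman rho = −0.891, adjusted permutation p = 0.0189). Without animals 4 and 8 it passed by Pearson's r (adjusted permutation p = 0.0237) but not by rank (adjusted permutation p = 0.0756). Without animals 1 and 9 r was −0.698 over the other 8 (exact permutation p = 0.0447, unadjusted). Fbln2 passed the threshold with the same genes by rank (rho = 0.855, adjusted permutation p = 0.0229) but not by Pearson's r (0.588, adjusted permutation p = 0.131). The rank relation of Fbln2 no longer passed with TMM-scaled CPM (rho = 0.770, adjusted permutation p = 0.0656) or without animals 4 and 8 (adjusted permutation p = 0.0621), and without animals 6 and 10 its r was 0.299 (exact permutation p = 0.502, unadjusted). Pdgfrb with the epithelial list had r = −0.720 (adjusted permutation p = 0.0369), which did not pass without animals 4 and 8 (adjusted permutation p = 0.0535), and r = −0.564 without animals 1 and 9 (exact permutation p = 0.1504, unadjusted). Fbln2, Postn and Twist2 had no relation to the epithelial list past the threshold by either coefficient.

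The relations to pericyte and smooth muscle genes rested on animals 1 and 9. Pdgfrb had r = 0.856 (adjusted permutation p = 0.0369) and rho = 0.297 (adjusted permutation p = 0.587) over 10 animals, and r = −0.360 without animals 1 and 9. Postn had r = 0.822 with the pericyte list, 0.259 without them, and −0.790 with the proximal tubule list, 0.05 without them. None of these 3 passed without animals 4 and 8 (adjusted permutation p = 0.0535 for each r). The summed members had no relation past the threshold by either coefficient. CPM values share a fixed total, which ties all lists together, and its part in these relations was not tested.

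**Figure D4:**
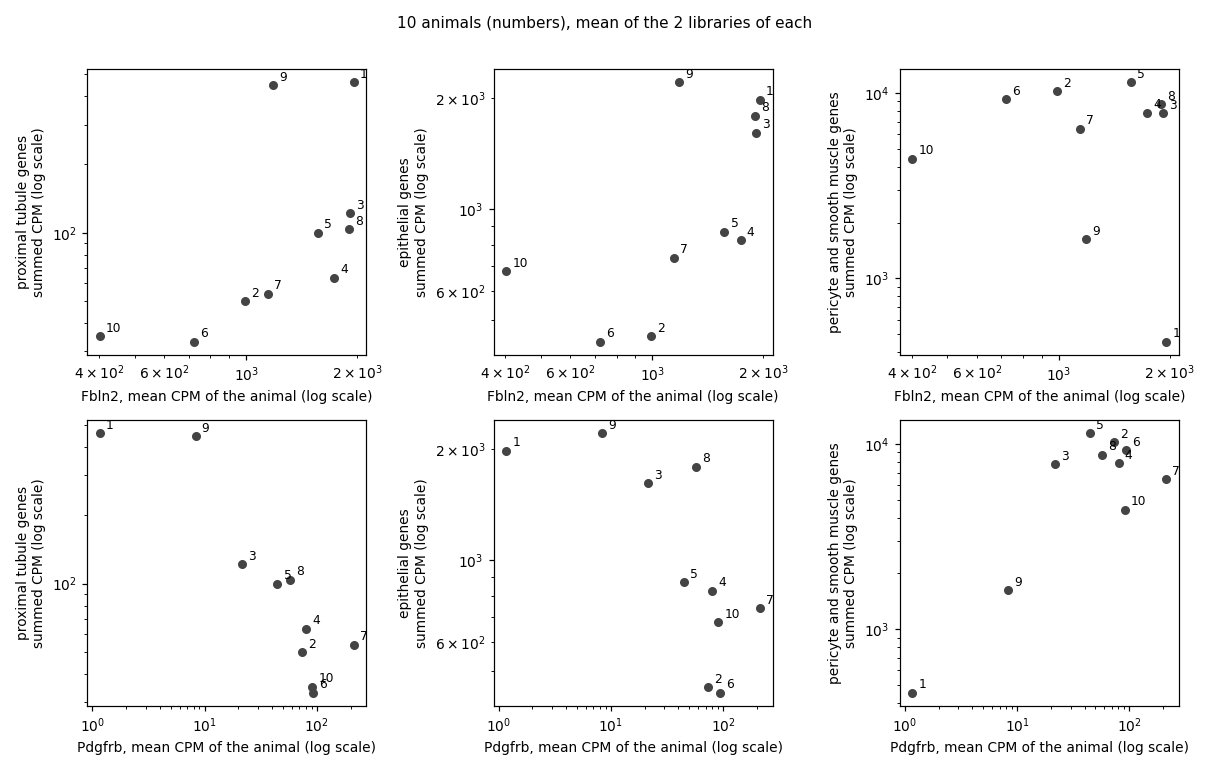
Mean CPM of Fbln2 (upper row) and Pdgfrb (lower row) in each of the 10 animals (numbered points, horizontal axis) against summed CPM of proximal tubule, epithelial and pericyte and smooth muscle genes (vertical axis), all axes logarithmic. Pdgfrb declines as proximal tubule genes increase from 33.0 to 461 CPM, and animals 1 and 9 stand apart in the pericyte panels.

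Other genes of fibroblasts and matrix ranged from abundant to near 0. Of 24 such genes the summed level ran from 5754 to 43117 CPM, mostly Fn1 (3368 to 23689 CPM) and Sparc. Col1a1, the fibrillar collagen gene, spanned 18.5 to 7865 CPM and was highest in both libraries of animal 7 (6116 CPM in that labelled stimulated KO and 7865 CPM in that labelled het control), the animal with the highest mean Pdgfrb (213 CPM), Dcn (2.25 CPM) and Thy1 (8.56 CPM). The same animal had the most Prrx1, a mesenchymal homeobox gene (63.8 and 51.8 CPM, against 16.6 CPM or less elsewhere). Dpt and Pi16, genes of universal fibroblasts, were at 0 in 13 and 15 libraries and never above 0.119 CPM. Col6a3, Mfap5, Fap, Meox1, Tcf21 and Gli1 were also low, with medians of 0.968, 0.243, 0.208, 0.104, 0.0697 and 0 CPM.

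Within the 6 animals, 4 of 17 tested matrix genes were called lower in KO cells and 8 of 17 in het cells, and none was called higher. Of all genes tested, 4.47% were called lower in KO and 6.9% in het cells. The median log2 fold change of the matrix genes was −0.40 in KO and −0.54 in het cells. Foxd1, a transcription factor gene of stromal progenitors of the kidney, fell by 1.71 ± 0.30 in KO and by 2.08 ± 0.34 in het cells. Fbn1 fell by 0.54 ± 0.11 in KO and by 0.75 ± 0.12 in het cells, and Col5a1, which encodes a chain of collagen V, and Sparc fell in both; Col5a2 fell in het cells (by 0.77 ± 0.13) and had −0.36 ± 0.13 in KO cells. Of 9 tested pericyte and smooth muscle genes, 6 were called lower in KO and 7 in het cells, and none was called higher. This stands against the same 4.47% in KO and 6.9% in het cells of all genes. The median log2 fold change of these 9 genes was −1.22 in KO and −1.11 in het cells. Cspg4, which encodes the pericyte proteoglycan NG2, fell by 1.296 ± 0.10 in KO and by 0.89 ± 0.10 in het cells, and Cnn1, encoding calponin, fell by 1.33 ± 0.17 in KO and by 1.75 ± 0.18 in het cells. Myh11, encoding smooth muscle myosin, fell by 2.86 ± 0.34 in KO cells and fell by 2.74 ± 0.43 in het cells, and Tagln, encoding transgelin, fell by 0.92 ± 0.15 in KO and by 1.01 ± 0.15 in het cells. In level, Acta2, encoding smooth muscle actin, was the highest of the 12 pericyte and smooth muscle genes with a median of 3474 CPM, and the median was 132 CPM for Mcam, 113 CPM for Cspg4, 64.1 CPM for Des and 22.5 CPM for Notch3. Rgs5 was at most 1.63 CPM, and Kcnj8, Abcc9 and Higd1b, which mark kidney pericytes, were at 0 in 16, 14 and 20 libraries. The part of a change in cell mixture in the fall of Pdgfrb and Postn was not tested.

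Relatives of the members behaved unevenly within the same 6 animals. Of 2 tested small leucine-rich proteoglycan genes besides Dcn and Lum, Ogn, encoding osteoglycin, fell by 2.37 ± 0.22 in KO and by 2.50 ± 0.27 in het cells, and Bgn was not called. Among 7 periostin and fibulin relatives, 2 fell in KO and 1 in het cells, where 4.47% of all genes tested were called lower in KO and 6.9% in het cells. Fbln5 fell by 1.07 ± 0.15 in KO and by 1.25 ± 0.17 in het cells. Fbln7 fell by 3.92 ± 0.80 in KO cells and had −1.56 ± 0.77 in het cells. In KO animals 3, 6 and 10 Fbln7 had 0, 0.0574 and 0.343 CPM when stimulated, against 0.358, 0.632 and 5.97 CPM in controls. Only the control library of animal 10 was thus far from 0. Of the 4 PDGF ligand genes, present at 260.4 to 744 CPM in sum, Pdgfc fell by 0.53 ± 0.09 in KO and by 0.41 ± 0.09 in het cells. Among the 4 other transcription factor genes of epithelial-mesenchymal transition, Zeb1 rose by 0.40 ± 0.09 and Zeb2 by 1.09 ± 0.24 in het cells. None of the 4 was called higher in KO cells, although Zeb2 was higher in the stimulated library in 6 of 6 animals. In KO animals 3, 6 and 10 Zeb2 had 146, 220 and 229 CPM when stimulated, against 115, 176 and 164 CPM in controls. The difference between genotypes was not called for any gene. The calls of Zeb1 and Zeb2 are values of single genes and not a result about the list.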

How the data were processed

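RNA from 20 libraries of cultured renal tubular epithelial cells was sequenced, in 4 groups of 5 taken from the sample titles; the labels also give each library's animal. The deposited table holds estimated counts per Ensembl gene, whole numbers as deposited. Per the submitters' processing notes the build was GRCm39 and the tools were Salmon 1.10.2, DESeq2 1.45.3, FastQC 0.11.9 and R 4.4.1, with no role given; the sources used here do not give how transcripts were summed to genes or the strand setting. Rounding to whole numbers changed 0 values. Symbols were found for 51425 of 55891 IDs (98.8% of counts).

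CPM is the count over the library total, unscaled. Exon lengths are the union of exons in GENCODE M21 (GRCm38), an annotation of another build than the table's, used for lengths only. Promoter windows are RefSeq's (GRCm38.p6); Pdgfrb, Dcn, Lum and Thy1 are named only. The main test was edgeR 4.0.16 in R 4.3.3 (TMM scaling, factors 0.939 to 1.13, filterByExpr, robust quasi-likelihood F test, Benjamini-Hochberg over 14568 genes) with 20 libraries in 1 model of 4 group means. That model was tried on simulated counts of independent libraries without an animal effect. The trial did not cover the fits with the animal as a block. Genes removed by the filter were compared by exact permutation of CPM. DESeq2 1.42.0, limma-voom (limma 3.58.1), other filters and scalings, left-out libraries and blocks on the replicate number or the animal were alternatives. The SE of a log2 fold change is its size over the square root of F.

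The animal pairs the libraries by the labels. Deviations from group means correlated at −0.298 to 0.623 within an animal, over 0.1 in 8 of 10 pairs. The members, the lists, the tests and the libraries left out were chosen with earlier results of these data known. The animal block without animals 4 and 8, or 4, 5, 7 and 8, was chosen after seeing the data, among 35 settings tried. All 9 members are named, and of each other list the called genes of lowest p, up to 3 in a comparison; the genes of closest profile are the first of a ranking by Pearson r of log2(CPM + 1), over the mean of the members as planned and over single members as an addition. Genes of these lists named for their level alone (Epcam, Cdh1, Pax8, Col1a1, Prrx1, Fn1, Dpt, Pi16, Col6a3, Mfap5, Fap, Meox1, Tcf21, Gli1, Rgs5, Kcnj8, Abcc9, Higd1b) were picked after their values were seen. Floors and intervals cover counting error only.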

Additional observations from a re-analysis of the deposited data

Results flagged for a closer look

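Of 36 sets of 5 libraries (9 genes in 4 groups), 8 had a library whose gap to its nearest neighbour exceeded 0.71 of the set's range, where chance gives about 1 in 20 for normally distributed values, a rate that does not hold for values of a few counts. Pdgfra stood at 1.72 CPM (30 counts) in the stimulated KO library of animal 10, above 0.894 CPM in the next. Twist1 stood at 1.78 CPM (23 counts) in the KO control library of the same animal, above 0.313 CPM. In the library of animal 4 labelled stimulated het, Dcn was 1.22 CPM (23 counts), above 0.264 CPM, and Postn was 79.6 CPM (1500 counts), above 23.3 CPM; this library has no Nos2 and goes against its label. Lum was 0.109 CPM (2 counts) in the library of animal 7 labelled stimulated KO and 0.0522 CPM (1 count) in that of animal 5 labelled KO control, with 0 counts in the other libraries of both groups; a gene counted in only 1 library of a group always has such a gap, so these 2 cases show only that. Twist2 was 23.7 CPM in the stimulated KO library of animal 6, the highest of its group above 20.1 CPM, and 11.1 CPM in the het control library of animal 9, the lowest of its group below 20.4 CPM.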

How the results depend on the processing

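With all libraries as labelled, 0 members were called in any of the 5 comparisons, and this held under DESeq2's size factors, the DESeq2 Wald test, limma-voom, both other filters, each library left out in turn (0 to 0), the replicate number as a block (0 in every comparison), the animal as a block with 20 libraries, and without animals 4 and 8, 5 and 7, or 1 and 9. The number of members called for stimulation became 2 in KO cells and 2 in het cells (Pdgfrb and Postn) with the animal as a replicate block and animals 4 and 8 left out, and likewise 2 with animals 4, 5, 7 and 8 left out, by edgeR with TMM, edgeR with DESeq2's size factors, the DESeq2 Wald test and limma-voom; the largest adjusted p among these was 0.0404 (Pdgfrb, het cells, limma-voom). These combinations were added after seeing the data. Of all genes, blocked edgeR called 5.06% lower in KO and 7.96% in het cells without animals 4 and 8. Without animals 4, 5, 7 and 8 it called 4.47% lower in KO and 6.9% in het cells. With all libraries as labelled, edgeR called 0% of genes. The DESeq2 Wald test called 0.789% in KO and 3.32% in het cells for stimulation. Shares under the other settings are not given here. Leaving out any 1 animal of the 12-library fit kept both genes called in both genotypes, with adjusted p up to 0.0295 for Pdgfrb and 0.0176 for Postn (edgeR). Of 1112 alternative fold changes of members, 115 had the other sign from the value as reported, in 24 of 35 gene and comparison pairs, none of them called. Over 10 animals, leaving out animals 1 and 9 turned the correlation of Pdgfrb with pericyte genes to −0.360 and that of Postn with proximal tubule genes to 0.0508; the cause was not tested. Depth limits Lum, Twist1, Dcn and Pdgfra, which rest on 11, 131, 191 and 275 counts in all.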

Other observations

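In the 6 animals compared within animals, several genes of other cell types also differed between stimulated and control libraries (edgeR with the animal as a block, adjusted p under 0.05). For the lists below, 4.47% of all 14776 genes tested were called lower in KO and 6.9% in het cells. The share of all genes called higher is not given here. Among 15 epithelial genes, Cdh1 rose by 0.97 ± 0.25 in KO and by 0.77 ± 0.19 in het cells on the log2 scale. Cdh1 was higher in the stimulated library in 5 of 6 animals, and averaged only 1.12, 0.69 and 0.57 CPM in animals 2, 6 and 10. Its value in each genotype thus includes animals in which it was near 0. Cdh16, encoding a kidney cadherin, fell by 0.56 ± 0.10 in KO and by 0.61 ± 0.09 in het cells. Of 7 tested proximal tubule genes, Lrp2, encoding the endocytic receptor megalin, fell by 0.74 ± 0.14 in KO and by 0.78 ± 0.14 in het cells, and Aqp1, a water channel gene, fell by 4.08 ± 0.65 in het cells and had 0.11 ± 0.80 in KO cells. The het value of Aqp1 came from animal 1 (2.00 CPM stimulated against 65.0 CPM control) and animal 9 (5.61 CPM stimulated against 95.4 CPM control), while animal 2 had 0.208 CPM stimulated against 0.0619 CPM control. Of 9 tested leukocyte genes, 2 fell and 0 rose in each genotype: Lyz2, encoding lysozyme, fell by 0.92 ± 0.19 in KO and by 1.27 ± 0.14 in het cells, and Csf1r, the receptor gene of macrophage growth factors, fell by 2.57 ± 0.63 in KO cells and fell by 2.43 ± 0.60 in het cells. The other 7 leukocyte genes were not called and had no common direction: Adgre1 was higher in the stimulated library in 5 of 6 animals (1.66 ± 0.88 in KO and 1.74 ± 0.59 in het cells on the log2 scale), Cd68 in 3 of 6, and C1qa in 1 of 6. Of 3 tested podocyte genes, Synpo, which is also expressed by other contractile cells, fell by 1.31 ± 0.23 in KO and by 1.40 ± 0.23 in het cells. No tested gene of the endothelial, mesangial and renin, or distal tubule lists was called in either genotype. The difference between KO and het responses was not called for any gene.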
